A study of Mus musculus with 8 samples.

Results

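The response of wild-type (WT) bone marrow-derived macrophages (BMDMs) to IFNγ and LPS was described from 4 of the 8 RNA-seq samples in the series, chosen by their labels. BMDMs are macrophages grown in culture from marrow cells with the growth factor M-CSF. The 4 samples were 2 of WT BMDMs without stimulation (0 h) and 2 of WT BMDMs that received IFNγ at 50 ng/ml overnight and then LPS at 50 ng/ml for 4 h (4 h). The WT mice were littermates of the conditional knockout and carried LysM-Cre, a Cre recombinase driven by the myeloid lysozyme M promoter, on a C57BL/6 background, and the Nudt21-cKO mice carried Nudt21 fl/fl in addition. Each sample pooled the cells of 2 mice. The treatment label names the stimulation for the 0 h samples as well, and these were taken as unstimulated from their titles and from the study's methods. The stimuli were given only together, so what each induced cannot be told apart, and nor can the effects of the overnight and the 4-h exposure. The deposited value is the coverage by reads averaged over the bases of a gene, for 21080 symbols, and it was not scaled between samples.

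IFNγ and LPS act on macrophages through separate receptors that meet at shared genes. IFNγ activates the kinases JAK1 and JAK2 and a STAT transcription factor that binds the gamma-activated sequence (GAS), and this induces further factors such as IRF1 and the class II transactivator CIITA. LPS is sensed by TLR4 with CD14 and MD-2. The adaptor MyD88 then leads to NF-κB and AP-1, and the adaptor TRIF leads to IRF3 and to interferon β, whose own receptor drives STAT proteins and IRF9 onto the interferon-stimulated response element (ISRE). A macrophage given both is known for making inflammatory cytokines, nitric oxide and antigen-presenting molecules, and for feedback inhibitors that limit the response.

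Stimulation changed the make-up of the RNA as a whole, and this set how a change could be stated. Summed over genes, the coverage was 15751245 and 15827594 at 0 h and 15552049 and 14950347 at 4 h, and so differed little. The median coverage of the 16002 genes tested was 162 and 159 at 0 h but 53.9 and 63.7 at 4 h, and the number of symbols listed at 0 was 4718 and 4622 against 6343 and 5936. Changes were therefore stated on both of 2 scales. On the first, each sample was multiplied so that the median gene had equal coverage (scaled coverage, the unit of every level given here). On the second, the summed coverage was made equal, which compares shares of the total. A log2 fold change on the second scale was 1.40 lower than on the first for the median gene with a scaled coverage over 50 at both times. Absolute RNA amounts per cell were not measured, so neither scale can be preferred from these data.

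Genes were tested with limma on log2(scaled coverage + 0.1) and called at an adjusted p under 0.05 and a fold change over 1.5. Relative to the median gene, 4954 of 16002 genes (31.0%) were called higher at 4 h and 3137 (19.6%) lower. At equal summed coverage 1847 (11.5%) were higher and 8057 (50.3%) lower, so the balance of higher against lower calls turned with the scale. In the following, a gene "rose" only if it was called higher on both scales and "fell" only if it was called lower on both, which left 1846 genes that rose (11.5%) and 3137 that fell (19.6%). The second scale set nearly all rises (1846 of 1847 calls) and the first scale all falls (3137 of 3137). Relative to the median gene, a rise thus had to be larger than a fall to be counted on both scales. For example, Trib3 at -0.85 fell, whereas Ccr1 at 1.52 did not rise. Counts of rises and falls therefore do not share 1 threshold on that scale. The genes that rose, chosen for a gain in share among other things, took 7.12% and 7.04% of the summed coverage at 0 h and 50.3% and 46.3% at 4 h. Without one or the other 0 h sample, the calls relative to the median gene went down to 1276 and 1247 higher and to 1197 and 1149 lower. Of the genes that rose or fell, 1067 rose over 4-fold (6.67%) and 1540 fell over 4-fold (9.62%). Counts of list members that rose or fell below are set against the same 11.5% and 19.6% of all genes tested. All log2 fold changes below are relative to the median gene unless the other scale is named. The smallest p that an exact permutation test of 1 gene allows here, with 2 samples at each time, is 0.333, and the adjusted p-values of limma rest on a spread shared over all genes. Among the genes named here that rose or fell, they ran from 0.00185 to 0.0491 over both scales. With the replicate number as a block, 13 of the 226 genes named lost their call relative to the median gene. Tlr4, Tlr13, Igf1 and Ftl1 were among them, and all are listed in the closing section.

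**Figure D1:**
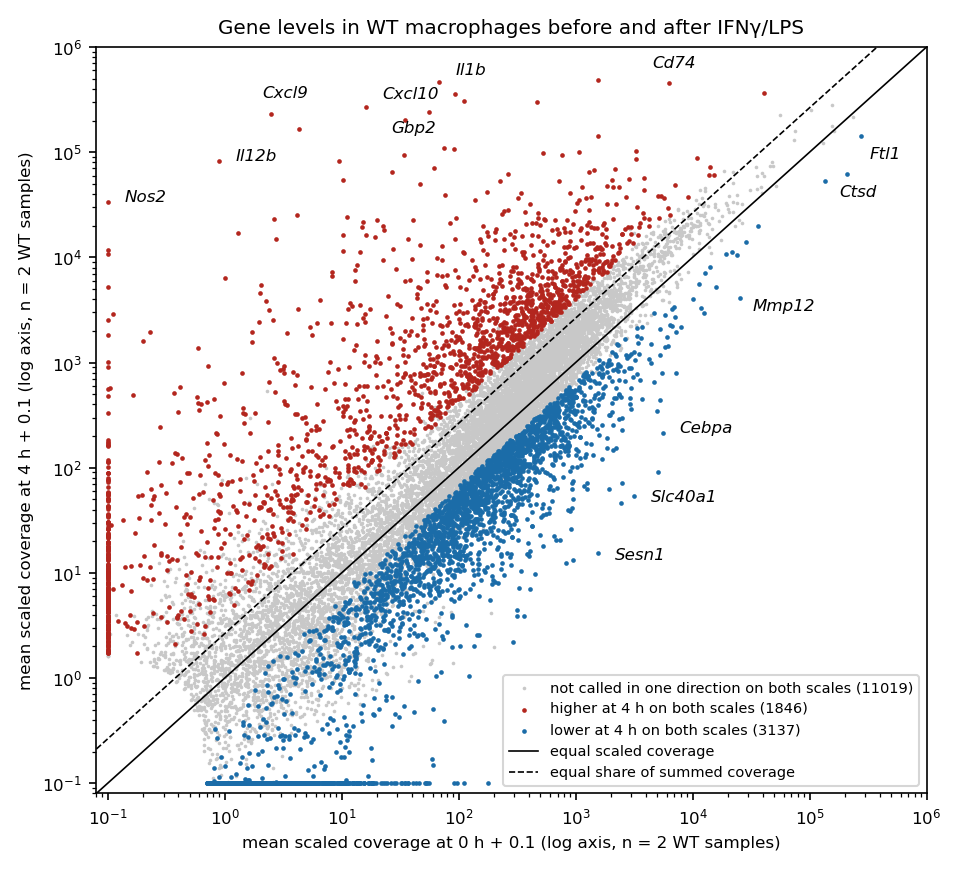
Mean scaled coverage of each of the 16002 genes tested at 0 h (x axis) and 4 h (y axis) in WT, both on log axes after adding 0.1, with n = 2 samples at each time. Red points are the 1846 genes that rose and blue points the 3137 that fell on both scales. The solid line marks equal scaled coverage and the dashed line an equal share of the summed coverage, and grey points between or near the lines are called in no direction on both scales.

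The genes with the largest rises were effectors of the response. Nos2, the inducible nitric oxide synthase (chr11:78920787-78960226, GRCm38), was listed at 0 in both 0 h samples and had a scaled coverage of 35065 and 31478 at 4 h. Il12b, the p40 subunit of IL-12 and IL-23 (chr11:44400063-44414677), went from 0.562 and 1.01 to 95831 and 69037, a log2 fold change of 16.53 (SE 0.37, adjusted p = 0.00202). Cxcl9, a chemokine for activated T cells (chr5:92321331-92328079), went from 0.533 and 4.24 to 270724 and 186861. Ptgs2, the inducible cyclooxygenase, went from 4.66 and 3.73 to 200158 and 130717. The others among the 12 largest rises were Iigp1, Serpina3f, Ccl12, Il6, Ifnb1, Il12a, Gbp2b and Cxcl10. Of the 12, Nos2, Iigp1, Serpina3f, Ccl12, Ifnb1 and Gbp2b were listed at 0 in both 0 h samples, so no fold change is given for them. For all 12 the lowest 4 h sample lay above the highest 0 h sample. This followed from their choice as the largest rises and adds no support.

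By scaled coverage gained the order was different, and this ranking was made only relative to the median gene. The 10 genes that gained most were Ccl3, Il1b, Cd74, Ccl5, B2m, Tnf, Ccl4, Cxcl10, Acod1 and Cxcl9. Together they took 0.559% and 0.484% of the summed coverage at 0 h and 15.0% and 12.1% at 4 h. B2m already stood at 44638 and 37520 at 0 h and Cd74 at 5438 and 7144, whereas Il1b started at 61.1 and 73.6 and reached 592624 and 346216. The 10 genes that lost most were Ctsd, Ftl1, Gpnmb, Mmp12, Fth1, Spp1, Selenop, Fabp5, Plin2 and Ctsl. They went from 10.5% and 10.6% to 2.14% and 2.1% of the summed coverage. Fth1, the ferritin heavy chain, was the exception among them in the test relative to the median gene, with a log2 fold change of -0.16 (SE 0.29, adjusted p = 0.672), but was lower at equal summed coverage (-1.56, adjusted p = 0.00969). It stood at 227036, 241829, 262522 and 168304 in the 4 samples.

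**Figure D2:**
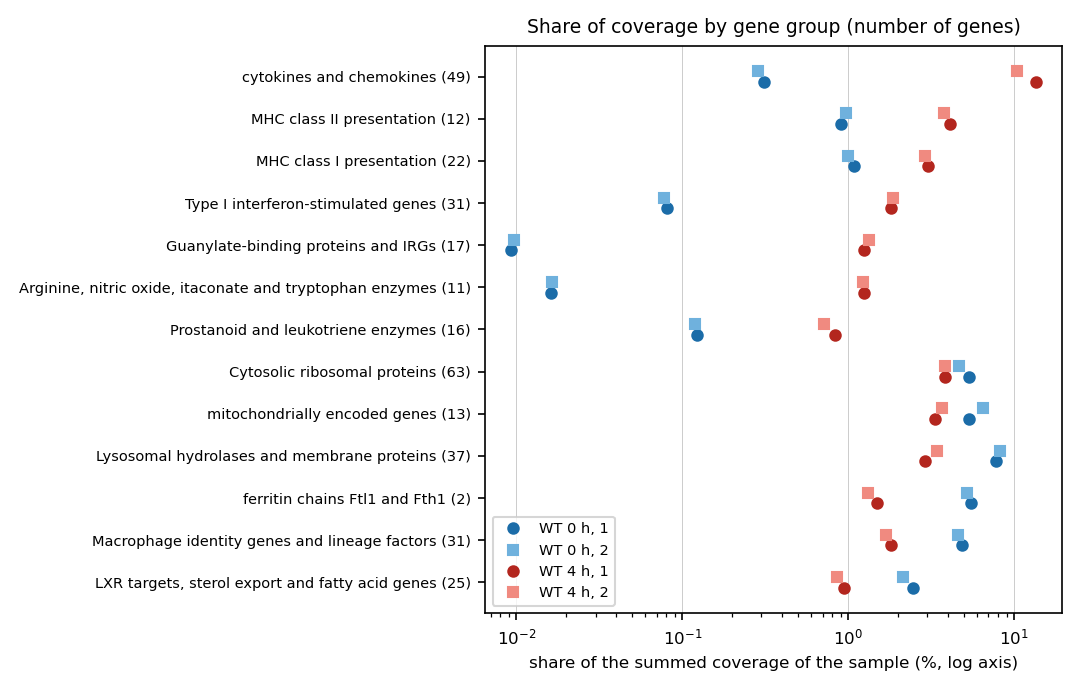
Share of the summed coverage of each WT sample taken by gene groups (x axis, percent, log axis), with the number of genes in parentheses. Circles and squares are samples 1 and 2 at 0 h (blue) and 4 h (red). The 49 cytokine and chemokine genes took 0.310% and 0.285% at 0 h and 13.5% and 10.4% at 4 h, while the 2 ferritin chains went from 5.47% and 5.23% to 1.49% and 1.32%.

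Of 26 cytokine genes, 22 rose, 1 fell and 3 did neither, and the median log2 fold change was 8.54, or 7.50 at equal summed coverage. With the 3 members listed at 0 at 0 h placed above all others, since their folds depend on the pseudocount, it was 8.93. Tnf went from 123 and 101 to 373190 and 236271 (log2 fold change 11.38, SE 0.31), and Il1a from 29.6 and 39.5 to 256691 and 143765. Il6 was at 2.42 in one 0 h sample and listed at 0 in the other, and stood at 20618 and 13090 at 4 h. Both subunits of IL-12 and the paired subunits of IL-27, Il27 and Ebi3, rose, Il27 by 13.07 and Ebi3 by 2.87 on the log2 scale from a higher starting level of 903 and 747. Il23a, which pairs with the product of Il12b in IL-23, reached only 538 and 171. Il10, which limits macrophage activation, rose as well, from 11.1 and 11.5 to 3727 and 2734, and the receptor antagonist Il1rn rose by 7.88. Ifnb1 was listed at 0 at 0 h and reached 2935 and 2135. Among growth factors, Csf1 rose by 5.58, and Csf2 and Csf3 were listed at 0 at 0 h and reached 40.6 and 29.8 for Csf2 and 497 and 169 for Csf3. Igf1, a growth factor of resting macrophages, fell from 7147 and 6721 to 3782 and 2977.

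Chemokines rose in 16 of 23 genes. The median log2 fold change was 7.41 (6.72 at equal summed coverage), which depends on the pseudocount because 2 members were listed at 0 at 0 h, and it was 8.22 with these placed above all others. Ccl3, Ccl4 and Ccl5, which attract monocytes and T cells, were among the most abundant transcripts of stimulated cells, and Ccl3 stood at 627601 and 333167. The neutrophil-attracting Cxcl1, Cxcl2 and Cxcl3 rose from at most 47.4 to between 1172 and 124305. Cxcl10 (chr5:92346638-92348889) went from 19.8 and 12 to 296438 and 241263, a log2 fold change of 14.07 (SE 0.33). Ppbp fell by 0.94 on the log2 scale (adjusted p = 0.0300). The samples of the 4 h group differed in this class relative to the median gene. On that scale, 35 of the 38 cytokine and chemokine genes that rose were higher in 4 h sample 1 than in sample 2. The median gap was 0.47 on the log2 scale, against 0.26 over all genes that rose. The size of this gap depends on the scale. Samples 1 and 2 were multiplied by 1.8 and 1.522 on the first scale and by 0.9977 and 1.038 on the second. The count of 35 was not made on the second scale or over all genes that rose.

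Of 13 chemokine receptors 5 rose and 2 fell, against 11.5% and 19.6% of all genes, with a median log2 fold change of 1.49 (0.09 at equal summed coverage). Ccr7, which guides cells to lymph nodes, went from 1.76 and 2.73 to 237 and 305, and the formyl peptide receptor Fpr2 from 28.0 and 62.4 to 6345 and 4201. Ccrl2, an atypical receptor that presents chemerin, rose by 6.82. Cxcr4, the CXCL12 receptor, fell from 1381 and 1116 to 107 and 35.3. Cx3cr1, the fractalkine receptor, stood at 199 and 176 at 0 h and at 8.06 and 0 at 4 h, and passed the test at equal summed coverage (adjusted p = 0.0410) but not relative to the median gene (adjusted p = 0.0874).

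The arginine, nitric oxide, itaconate and tryptophan enzymes rose in 8 of 11 genes (median log2 fold change 5.52, or 4.11 at equal summed coverage). Beside Nos2, the arginine transporter Slc7a2 rose by 7.96, argininosuccinate synthase Ass1 by 5.52 and Gch1, which makes the cofactor tetrahydrobiopterin, by 4.75. Asl, which makes arginine from the product of Ass1, did not rise (0.20, adjusted p = 0.531, relative to the median gene, and -1.20, adjusted p = 0.0111, at equal summed coverage). Acod1, which makes itaconate from the TCA cycle intermediate aconitate, went from 53.0 and 58.1 to 268964 and 214183. Kynu of the tryptophan pathway rose by 8.87, whereas Ido1, the first enzyme of that pathway, was listed at 0 at 0 h and reached only 14.9 and 30.1. Odc1, the first enzyme of polyamine synthesis, rose by 3.11.

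All 17 guanylate-binding proteins and immunity-related GTPases (IRGs) that were tested rose over 4-fold on both scales, with a median log2 fold change of 10.20, or 8.79 at equal summed coverage. These interferon-induced GTPases attack the vacuoles of intracellular microbes. Gbp2 (chr3:142620663-142638008) went from 81.2 and 101 to 107174 and 105727, and Gbp5 (chr3:142496934-142522344) from 29.5 and 23.9 to 70777 and 60200. The levels at 0 h were uneven: Irgm1, a regulator of the other IRGs, was at 285 and 269, whereas Iigp1 and Gbp2b were listed at 0 in both samples. Several members resemble each other in sequence (Gbp2 and Gbp2b, Tgtp1 and Tgtp2), and how reads were divided among them is uncertain. The same holds for Serpina3f above and for the Bcl2a1 and H2 genes below.

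Of 31 genes of the type I interferon programme, 30 rose and none fell (median 6.63, or 5.23 at equal summed coverage). Isg15, a ubiquitin-like modifier, went from 22.2 and 23 to 19032 and 20765, and its protease Usp18 rose by 8.65. Rsad2 (viperin) went from 40.9 and 52.4 to 48071 and 51640, and Oasl1 from 7.33 and 13.0 to 60718 and 48261. The RNA sensor Ifih1 rose by 6.78 and Bst2 (tetherin) by 3.10. The smallest rise among those named was that of Trim25, at 2.59.

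Promoter windows of these genes were read from RefSeq (GRCm38.p6), from 250 bases before to 50 after each annotated start. In some IRG genes a GAS was followed after 2 bases by an ISRE. The windows are shown because they place both elements of the IFNγ and the type I interferon pathway side by side in genes that rose over 4-fold, written 5′ to 3′ on the strand of the gene with the GAS and the ISRE in capitals:
Igtp: ccatTTCTAGGAActGAAACTGAAAgctgt
Irgm2: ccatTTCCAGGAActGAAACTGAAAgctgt
Tgtp2: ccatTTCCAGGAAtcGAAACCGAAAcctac
They lie at chr11:58199507-58199536 on the plus strand for Igtp, chr11:58214898-58214927 on the plus strand for Irgm2 and chr11:49064268-49064297 on the minus strand for Tgtp2, and the GAS begins 45, 75 and 81 bases before the start. Igtp rose by 6.68, Irgm2 by 4.71 and Tgtp2 by 10.47. This spacing was noticed in the sequences and then counted. It was found in 5 of 14789 windows of tested genes, those of Igtp, Irgm2, Tgtp1, Tgtp2 and Gm12185, and all 5 genes rose over 4-fold. IRGs are related genes, so their windows are not independent of each other.

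Other windows carry 1 element each, shown for genes described in this text. The capitals mark an ISRE in these:
Irgm1: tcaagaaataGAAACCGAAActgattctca
Cxcl10: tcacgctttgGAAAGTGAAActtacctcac
Isg15: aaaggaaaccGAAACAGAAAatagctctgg
Gbp2: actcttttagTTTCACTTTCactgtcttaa
The capitals mark a GAS in these:
Irf1: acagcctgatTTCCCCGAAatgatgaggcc
Icam1: ggcgcgaggtTTCCCGGAAagtggccccga
Socs3: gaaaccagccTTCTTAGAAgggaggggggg
The capitals mark an NF-κB match in these:
Nfkbia: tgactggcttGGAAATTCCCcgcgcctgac
Cxcl1: cctgtactccGGGAATTTCCctggcccgga
Cxcl2: cctggtccccGGGCTTTTCCagacatcgtg
Cxcl3: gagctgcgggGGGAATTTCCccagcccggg
Il6: tatcaaatgtGGGATTTTCCcatgagtctc
The capitals mark an AP-1 match in these:
Il1a: gcagagaagccTGACTCAgacttaagtctc
Mmp13: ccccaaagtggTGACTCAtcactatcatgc
The matches begin 24, 213, 66 and 59 bases before the start for the ISRE genes in that order, 90, 42 and 154 for the GAS genes, 29, 71, 78, 73 and 44 for the NF-κB genes and 12 and 35 for the AP-1 genes. In Gbp2 and Nfkbia the match lies on the opposite strand.

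The letters searched on both strands were GAAA and GAAA with 2 bases between for the ISRE, TTCNNNGAA for the GAS, GGG and TTTCC with 2 bases between for NF-κB and TGANTCA for AP-1, where N is any base, and a window may hold several. A GAS match overlapped an ISRE match in 16 of the 14789 windows. Windows were found for 749 of the 1067 genes that rose over 4-fold, 1059 of the 1540 that fell over 4-fold and 11675 of the 16002 tested. An ISRE match was in 9.59% of the 949 windows of the first set, 2.58% of the 1357 of the second and 3.32% of all 14789. The GAS shares were 10.6%, 7.89% and 7.11%, the NF-κB shares 4.00%, 1.55% and 1.74%, and the AP-1 shares 12%, 7.37% and 5.88%, in the same order. Among the 11 windows of guanylate-binding proteins and IRGs (GTPases), 10 held an ISRE match (90.9%). Among the 20 windows of NF-κB subunits and regulators 7 held an NF-κB match (35.0%). Of the 27 windows of type I interferon genes 48.1% held an ISRE match, as did 23.8% of the 21 of the class I pathway, 12.5% of the 16 of chemokines, 4.35% of the 23 of cytokines and none of the 20 of NF-κB genes. An NF-κB match was in 25% of the chemokine windows, 17.4% of the cytokine windows and none of those of type I interferon genes, and no cytokine window held a GAS match. A match is a description of the letters in this window.

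Antigen presentation rose for both classes of MHC. Of 22 genes of the class I pathway, 19 rose (median 3.69, or 2.28 at equal summed coverage). B2m, the light chain of class I, went from 44638 and 37520 to 414334 and 315222, and H2-K1 from 11131 and 10514 to 100753 and 74496. The peptide transporter Tap1 rose by 5.52, the immunoproteasome subunit Psmb8 by 3.73, its activator Psme2 by 4.80 and the class I transactivator Nlrc5 by 5.29. H2-D1 was higher by 1.82 relative to the median gene but not past the test at equal summed coverage (0.42, adjusted p = 0.0724). Of 12 class II genes, 10 rose (median 5.51, or 4.12). Ciita, the master regulator of class II, went from 24.3 and 38.8 to 1693 and 1734, and H2-Aa, H2-Ab1 and the invariant chain Cd74 rose by 6.52, 6.92 and 6.17. Ctss, the protease that trims the invariant chain, was high at both times, and its log2 fold change was 1.07 relative to the median gene and -0.33 at equal summed coverage.

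Of 18 costimulatory and checkpoint ligands, 15 rose and 1 fell (median 4.67, or 3.27 at equal summed coverage). Cd40 went from 79.0 and 71.7 to 122554 and 94680. Cd86 rose by 6.49, Cd80 by 4.21 and the adhesion molecule Icam1 by 6.21. Cd274, which encodes the inhibitory ligand PD-L1, rose by 6.2. Tnfsf4 (OX40 ligand) was listed at 0 at 0 h and reached 353 and 770. Vsir, which encodes the inhibitory ligand VISTA, fell from 5444 and 6582 to 1802 and 1707.

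Transcription factors of both pathways rose. Of 15 interferon regulatory factors and STATs tested, 9 rose and none fell (median 3.28, or 1.89 at equal summed coverage). Irf1 went from 511 and 445 to 25521 and 21902 and Irf7 from 136 and 169 to 16387 and 13309. Irf8, a lineage factor of monocytes that also acts with Irf1, rose by 4.48 from 2125 and 2014. Of 18 NF-κB subunits and regulators, 17 rose and none fell (median 4.10, or 2.70). Nfkb1, Nfkb2, Rela and Relb rose by 4.07, 4.52, 2.47 and 2.74. Of the other members, Nfkbia, which holds NF-κB in the cytosol, rose by 5.63, Nfkbiz by 6.15 and Tnfaip3, a ubiquitin-editing enzyme, by 6.83. AP-1, EGR and immediate-early factors were mixed, with 14 of 26 rising and none falling (median 2.61, or 1.21). Batf2 rose by 7.29, Maff by 5.78 and Junb by 4.10, whereas Fos, an immediate-early gene, was at 775 and 640 at 0 h and at 745 and 526 at 4 h (log2 fold change -0.17, adjusted p = 0.616, or -1.57, adjusted p = 0.01, at equal summed coverage).

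Of 19 SOCS, DUSP and ZFP36 genes, feedback inhibitors of signalling, 10 rose and 4 fell, against 11.5% and 19.6% of all genes (median 3.27, or 1.87 at equal summed coverage). Socs3, which limits gp130 cytokine signals, went from 19.6 and 20.1 to 26468 and 18871, and Socs1, which limits IFNγ signals, from 8.79 and 4.00 to 4607 and 3255. The MAP kinase phosphatases Dusp1 and Dusp2 rose by 4.18 and 7.31, but Dusp6, which acts on ERK, fell from 318 and 301 to 73.4 and 45.2. Within the tristetraprolin family of RNA-binding proteins, Zfp36 rose by 3.97 and Zfp36l2 fell by 3.09 on the log2 scale.

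Of 29 cytokine and interferon receptor genes, 6 rose and 3 fell, with a median of 1.37 relative to the median gene and -0.03 at equal summed coverage. Il15ra, which presents IL-15, rose by 7.42 together with Il15 at 6.42, and Jak2 rose by 5.30. Ifngr1, the ligand-binding chain of the IFNγ receptor, fell from 3211 and 3043 to 1206 and 1293, and Il6ra fell by 2.59 on the log2 scale. Of 28 Toll-like receptors and adaptors, 11 rose and 5 fell (median 1.72, or 0.32). Tlr4 fell from 432 and 494 to 245 and 234, a log2 fold change of -0.95 (SE 0.15, adjusted p = 0.0189), while its co-receptor Cd14 rose by 3.79 and Myd88 by 3.51. Tlr2, a receptor for bacterial lipoproteins, rose by 2.98, and Tlr13, a receptor for bacterial ribosomal RNA, fell by 1.92 on the log2 scale. Traf1, a signalling adaptor induced by NF-κB, went from 18.6 and 26.8 to 21952 and 14574.

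Of 20 genes of inflammasomes, pyroptosis and necroptosis, 12 rose and 3 fell (median 2.64, or 1.23 at equal summed coverage). Nlrp3 went from 397 and 362 to 23893 and 18038. Casp4, the sensor of cytosolic LPS in the mouse (also called caspase-11), rose by 4.89, Casp1 by 3.15 and the necroptosis effector Mlkl by 4.51. Cflar, which blocks caspase-8, rose by 5.08. In the BCL2 family 5 of 17 rose and 1 fell, with a median of 1.33 or -0.07 by scale. The anti-apoptotic Bcl2a1a and Bcl2a1d rose by 5.84 and 5.34, and the pro-apoptotic Bmf fell from 125 and 144 to 1.78 and 2.07. The pro-apoptotic Pmaip1 (NOXA) rose by 2.05, and Bik, also pro-apoptotic, was listed at 0 at 0 h and stood at 2.58 and 2.02 at 4 h.

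**Figure D3:**
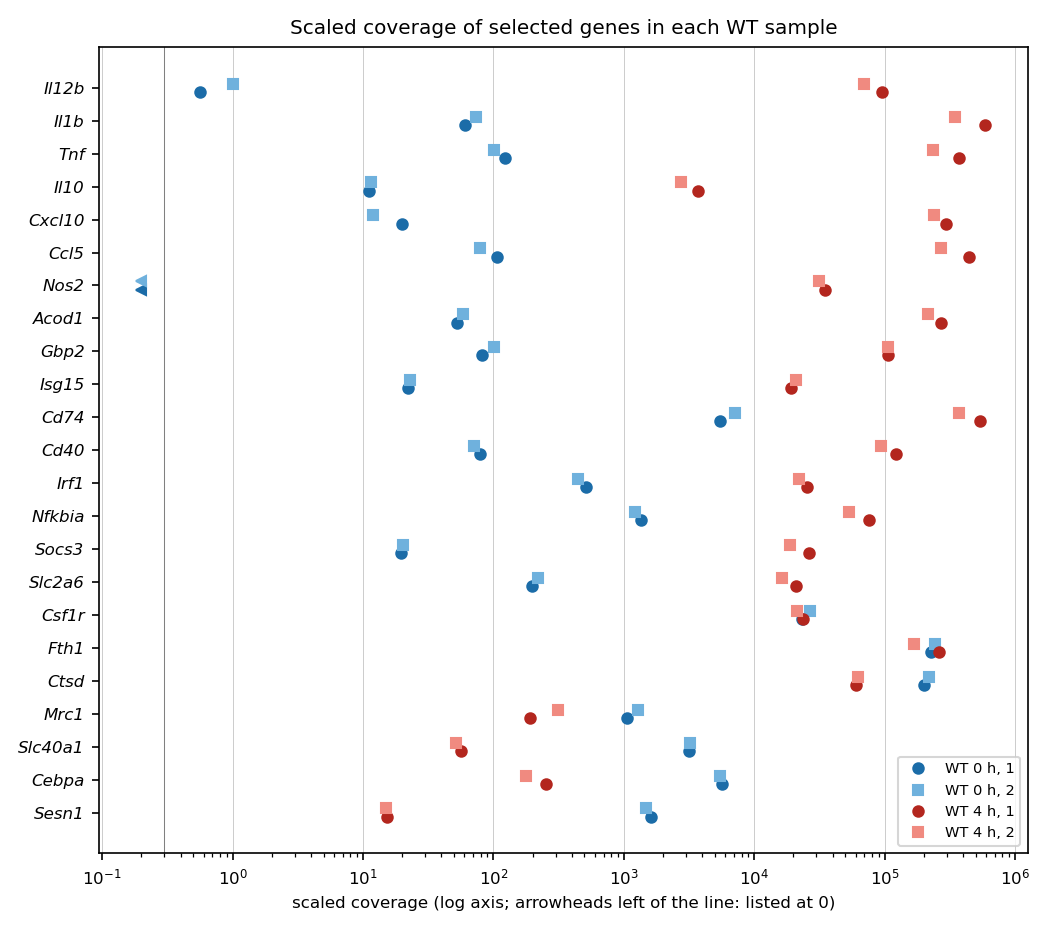
Scaled coverage of several genes in each of the 4 WT samples (x axis, log axis). Circles and squares are samples 1 and 2 at 0 h (blue) and 4 h (red), and arrowheads left of the grey line stand for values listed at 0. For Il12b to Slc2a6 the samples of the times lie far apart on the high side, Csf1r and Fth1 overlap between the times, and Ctsd to Sesn1 lie apart on the low side.

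The cells expressed macrophage markers at both times. Csf1r, the M-CSF receptor, was at 23204 and 26948 at 0 h and 23823 and 21259 at 4 h, Cd68 at 27285 and 26125 against 22249 and 19938, and Adgre1 (F4/80) at 12071 and 14892 against 22318 and 20240, and none of them was called on both scales. Their log2 fold changes were -0.15, -0.34 and 0.66 relative to the median gene and -1.56, -1.75 and -0.74 at equal summed coverage, and on the second scale all 3 had an adjusted p under 0.05. Of 31 identity genes and lineage factors, 5 rose and 8 fell, against 11.5% and 19.6% of all genes tested, with a median of 0.39 relative to the median gene and -1.01 at equal summed coverage. Among the members that fell, Cebpa, a myeloid lineage factor (chr7:35119293-35121928), went from 5701 and 5443 to 251 and 179, a log2 fold change of -4.72 (SE 0.23, adjusted p = 0.00322). Maf, a basic leucine zipper factor, fell by 1.40 on the log2 scale. Pparg, a lipid-sensing nuclear receptor, fell by 1.61 and Bhlhe41 by 3.72 on the log2 scale. Tfec, a factor of the MiT family found in macrophages, rose by 3.18, and the high-affinity IgG receptor Fcgr1 by 2.78.

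Markers of other cell types were low or did not rise on both scales in most cases. Of 10 neutrophil genes none rose and 1 fell, although S100a9 was at 6716 and 7266 at 0 h and 17961 and 18395 at 4 h (1.38 relative to the median gene, -0.02 at equal summed coverage), and their summed share was 0.152% and 0.168% at 0 h and 0.116% and 0.149% at 4 h. The summed share was at most 0.00131% for 5 T cell genes, 0.00366% for 3 B cell genes and 0.00148% for 9 stromal and endothelial genes in any WT sample. Of 7 dendritic cell genes 3 rose, and their summed share was 0.000160% and 0.000182% at 0 h and 0.00799% and 0.0132% at 4 h, of which Clec9a alone took 0.00772% and 0.0126%. Clec9a, a receptor for dead cells on cross-presenting dendritic cells, went from 1.99 and 2.95 to 2160 and 2869, and Xcr1, the XCL1 receptor of the same cells, from 0.000146 and 0 to 31.5 and 79.7, while Flt3, a growth factor receptor that defines dendritic cells, had means of 1.45 and 1.89. In bulk RNA a change in the number of such cells and in the RNA per cell cannot be told apart, and the part of other cells in these results was not tested.

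Uptake receptors were divided between rises and falls, with 6 of 23 scavenger and lectin receptors rising and 7 falling (median 0.18 relative to the median gene, -1.22 at equal summed coverage). Mrc1, the mannose receptor, fell from 1061 and 1281 to 191 and 312, Stab1 (stabilin-1) from 5160 and 5286 to 487 and 399.6 and the haemoglobin receptor Cd163 from 29.9 and 37.5 to 0.879 and 0. Lrp1, a receptor for apoptotic cells and lipoproteins, fell by 1.56, and Gas6, a bridging ligand for apoptotic cells, by 3.85 on the log2 scale. On the other side, Clec4e (Mincle, a receptor for mycobacterial glycolipid) went from 200.1 and 151 to 55752 and 28535, and Olr1 and Marco rose by 6.81 and 3.51. Of 21 Fcγ receptor and complement genes, 9 rose and 1 fell (median 1.99, or 0.59). Cfb, complement factor B, went from 26.8 and 28.2 to 14023 and 9860, C3 rose by 4.30 and the activating receptor Fcgr4 by 4.43.

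Of 13 iron-handling genes 3 rose and 5 fell (median 0.64, or -0.76 at equal summed coverage). Slc40a1, which encodes ferroportin, the iron exporter of the cell (chr1:45908070-45926532), went from 3140 and 3220 to 56.9 and 51.4, a log2 fold change of -5.88 (SE 0.14, adjusted p = 0.00204). Hamp, which encodes hepcidin, the hormone that removes ferroportin from the surface, was at 1.22 and 0 at 0 h and 174 and 169 at 4 h. The transferrin receptor Tfrc fell by 1.85 and the ferritin light chain Ftl1 by 0.96 on the log2 scale. Among 21 genes of the NADPH oxidase and of antioxidant defence 4 rose and 4 fell, against 11.5% and 19.6% of all genes (median 0.93, or -0.47). The mitochondrial superoxide dismutase Sod2 rose by 4.87, thioredoxin Txn1 by 3.52 and the cystine transporter Slc7a11 by 6.81, whereas Hmox1, which frees iron from haem, fell by 2.12 and catalase Cat by 2.15.

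Among prostanoid genes beside Ptgs2, Ptges, which makes prostaglandin E2, rose by 3.74, and Hpgd, which degrades it, fell from 1273 and 1108 to 69.0 and 63.3. Of 16 genes of this group 5 rose and 5 fell (median 0.41, or -0.99 at equal summed coverage). Of 24 matrix proteases and inhibitors 8 rose and 6 fell (median 0.81, or -0.56). Mmp13, a collagenase, went from 216 and 233 to 67153 and 39654 and Mmp14 rose by 3.41, while Mmp12, the macrophage elastase, fell from 22403 and 28771 to 4237 and 3943.

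Of 25 LXR targets, sterol export and fatty acid genes, 2 rose and 11 fell, against 11.5% and 19.6% of all genes tested (median -0.36, or -1.77 at equal summed coverage). The cholesterol exporters Abca1 and Abcg1 fell by 1.34 and 1.24 on the log2 scale, the phospholipid transfer protein Pltp by 1.85, the lipid droplet coat Plin2 by 1.60 and the fatty acid carrier Fabp5 by 1.21. The 2 that rose were Ch25h, which makes 25-hydroxycholesterol, from 1.41 and 0.395 to 7223 and 5400, and Acsl1, which activates fatty acids, by 6.30. Of 23 cholesterol synthesis and uptake genes 3 rose, Idi1 among them, and 1 fell, against the same shares of all genes (median 1.17, or -0.23).

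Of 37 lysosomal genes 1 rose and 10 fell, against 11.5% and 19.6% of all genes tested (median -0.01, or -1.42 at equal summed coverage), and their summed share went from 7.80% and 8.25% to 2.92% and 3.41%. Ctsd, a lysosomal protease (chr7:142375910-142387827), went from 201040 and 218077 to 60279 and 62828, and Sgsh, a sulfatase, from 865 and 1022 to 51.1 and 49.5. The exception was Ctsc, which activates granule proteases, with 3252 and 3270 at 0 h and 112841 and 91644 at 4 h. Of 37 core autophagy genes 2 rose and 17 fell (median -0.32, or -1.72), against 19.6% of all genes that fell. The initiating kinases Ulk1 and Ulk2 fell by 1.85 and 1.96, and the cargo receptor Nbr1 by 2.45 on the log2 scale. Tfeb, the master regulator of lysosomal genes, fell by 3.45 on the same scale. The cargo receptors Sqstm1 (p62) and Optn rose, by 2.18 and 2.11. Map1lc3b, the marker protein of autophagosomes, did not pass the test relative to the median gene (log2 fold change -0.38, adjusted p = 0.119) and was called lower at equal summed coverage (-1.78, adjusted p = 0.00507).

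**Figure D4:**
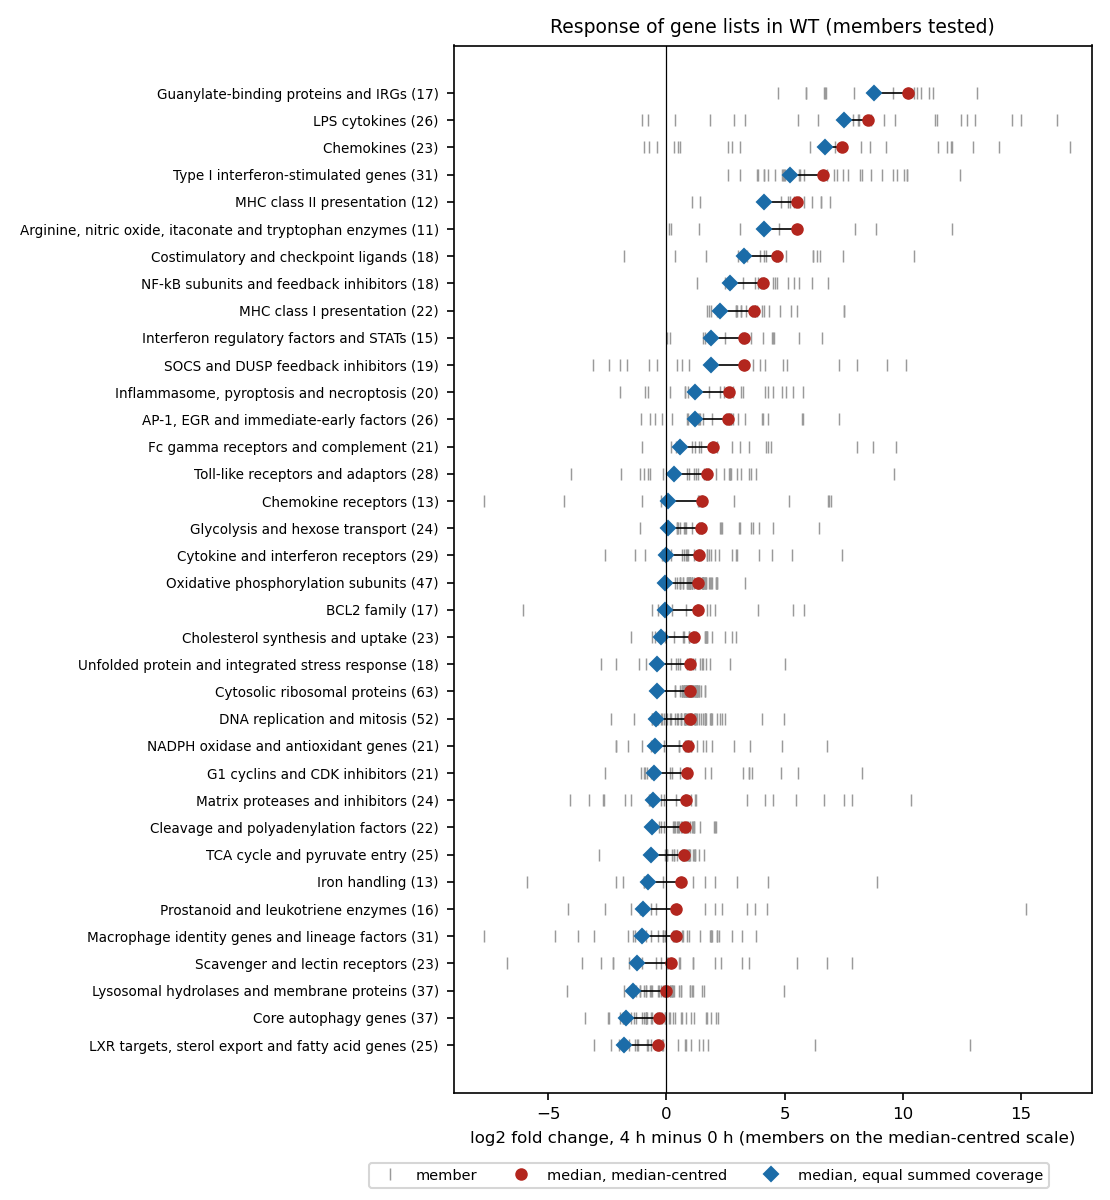
Log2 fold change from 0 h to 4 h in WT for the members of each gene list (grey ticks, relative to the median gene, members listed at 0 in both samples of a time left out), with the list's median relative to the median gene (red circles) and at equal summed coverage (blue diamonds). Both medians lie above 0 from guanylate-binding proteins and IRGs (10.20 and 8.79) down to glycolysis (1.47 and 0.07), both lie below 0 for LXR targets, autophagy and lysosomal genes, and for every list between these they lie on opposite sides of 0.

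The largest falls in fold were of genes at low levels. The 12 first by the rule for named genes were Gm15513, Galnt9, Shisa9, Trav14n-3, Gm11748, Nptx1, Gm50020, Gsta3, Acot1, Sbk1, Mblac2 and Nat8l, with 34.3 to 182 at 0 h and at most 1.87 at 4 h, and the first 8 of them were listed at 0 in both 4 h samples. Among genes with a scaled coverage of at least 1000 at 0 h, a choice made after the values were seen, Sesn1, a stress-induced inhibitor of mTORC1 (chr10:41810574-41908436), fell most, from 1628 and 1469 to 15.3 and 15.1 (log2 fold change -6.66, SE 0.14). After Sesn1 came Slc40a1, Dhrs3, a retinal reductase, Lhfpl2, Cd300lb, Tmem86a, Cebpa, Cxcr4, Rab3il1 and Hpgd. Among all symbols, 185 had a deposited coverage of at least 5 in both 0 h samples and 0 in both 4 h samples, and 100 symbols showed the reverse. On the deposited scale the median log2 ratio of 4 h over 0 h followed the level of the gene, from -2.24 for mean coverages of 0.5 to 2 through -1.69 for 50 to 200 to -0.15 above 5000.

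Genes of glucose uptake and glycolysis rose at several steps. Of 24 genes 10 rose and 1 fell, with a median of 1.47, or 0.07 at equal summed coverage. The hexose transporter Slc2a6 went from 199 and 219 to 20823 and 16206, and Slc2a1 (GLUT1) rose by 3.08. The hexokinases Hk2 and Hk3 rose by 3.11 and 3.59, Pfkp by 4.52 and Pfkfb3, which makes the activator of phosphofructokinase, by 3.93. Hif1a, a driver of glycolytic genes, rose by 3.65. None of 25 genes of the TCA cycle list rose. The only member that fell was Idh1, the cytosolic isocitrate dehydrogenase, which acts outside the mitochondrial cycle, from 4545 and 4817 to 648 and 649. The other TCA genes had 16 called higher relative to the median gene and the list's median turned from 0.74 to -0.66 at equal summed coverage. The 47 nuclear-encoded subunits of oxidative phosphorylation did likewise (median 1.35, or -0.05), with 41 called higher on the first scale and only Cycs (cytochrome c, 3.32) on both. The share of the 13 mitochondrially encoded genes went from 5.31% and 6.46% to 3.34% and 3.68%.

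Growth-related lists also had no direction that held on both scales. None of 63 cytosolic ribosomal protein genes rose or fell on both, and their median was 1 relative to the median gene and -0.41 at equal summed coverage. Of 52 genes of DNA replication and mitosis 2 rose and 2 fell (median 0.98, or -0.42). Mki67, a proliferation marker, rose by 4.05 and Ccne1 by 4.96, whereas E2f2 fell by 2.36. Of 21 G1 cyclins and CDK inhibitors 6 rose and 4 fell (median 0.88, or -0.53). Ccnd2 (cyclin D2) went from 11.6 and 11.8 to 3939 and 3436, and the CDK inhibitor Cdkn1a (p21) from 1431 and 1455 to 77565 and 58620, while Cdkn1c fell by 2.59 on the log2 scale. Of 18 genes of the unfolded protein and integrated stress responses 2 rose and 4 fell, shares close to the 11.5% and 19.6% of all genes (median 1.01, or -0.39). Hspa5, the chaperone BiP, rose by 2.68 and Ppp1r15a, which restores translation, by 5.0, while the stress kinase Eif2ak3 (PERK) fell by 2.75 and Sesn2 by 2.15.

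Nudt21, the gene deleted in the cKO, was expressed at both times in WT, with 430 and 390 at 0 h and 984 and 875 at 4 h. Its log2 fold change was 1.18 relative to the median gene (SE 0.15, adjusted p = 0.0131, limma) and -0.22 at equal summed coverage (adjusted p = 0.291). It was thus called higher on the first scale only. For its partners in cleavage factor I the sign also turned with the scale. Cpsf7 was at 1.11 (adjusted p = 0.0192) and -0.29 (adjusted p = 0.148). Cpsf6 was not past the test on the first scale (0.61, adjusted p = 0.0696) and was lower on the second (-0.80, adjusted p = 0.0173). Of 22 cleavage and polyadenylation factors 3 rose, Cpsf2, Clp1 and the poly(A)-binding protein Pabpc1, and none fell, against 11.5% and 19.6% of all genes (median 0.78, or -0.62).

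The WT response was then set against that of the Nudt21-cKO cells in one limma fit over all 8 samples. In the cKO samples Nudt21 was at 100.2 and 101 at 0 h and 197 and 164 at 4 h, all below the 4 WT values on the scale of that fit (419 to 1069). Of 16284 genes tested, 370 (2.27%) differed in response, 176 (1.08%) with the WT change the more positive and 194 (1.19%) with the WT change the more negative. With the replicate number as a block only 30 genes passed, and with one sample left out 208 to 627 did. None of the 8 genes named below passed with the block, where their adjusted p (limma) ran from 0.0826 for Trib3 to 0.206 for Cfb. Of 919 list members in the fit 28 differed (3.05%). Of the 4983 genes that rose or fell in WT, 4936 were in this fit, and 4765 of these (96.5%) had the same sign of change in cKO on its scale. Of the same 4936, 219 (4.44%) differed in response without the block, against 2.27% of all genes. These genes were chosen for a change in WT, and the share of equal signs over all genes was not counted. Olr1 rose more in WT (6.82 against 4.76, adjusted p = 0.0173), and Cfb rose less (8.75 against 11.60, adjusted p = 0.0412). Tlr4 fell less in WT (-0.93 against -2.23, adjusted p = 0.0253) and Slc40a1 fell more (-5.86 against -4.44, adjusted p = 0.0194). Csf2, listed at 0 at 0 h in all 4 samples of that time, reached 44.1 and 32.5 in WT and 229.9 and 299.8 in cKO on the scale of this fit. Ccl12, likewise listed at 0 at 0 h, reached 6276 and 5136 in WT and 1625 and 1417 in cKO. Ccr1, a receptor of CCL3 and CCL5, had changes of 1.54 in WT and -0.66 in cKO relative to the median gene. Its WT value at equal summed coverage was only 0.12 (limma on the WT samples, adjusted p = 0.56), so Ccr1 is not among the genes that rose. Trib3, a target of the integrated stress response, had changes of -0.83 in WT and 2.38 in cKO relative to the median gene. The cKO changes of both genes at equal summed coverage are not given here.

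**Figure D5:**
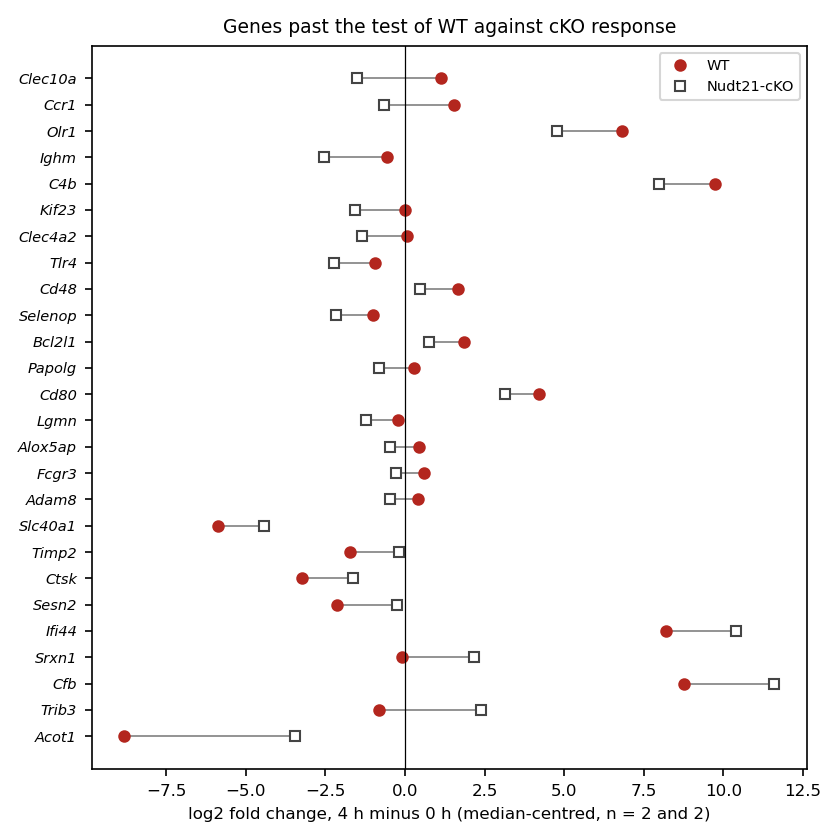
Log2 fold change from 0 h to 4 h in WT (red circles) and Nudt21-cKO (open squares) for named genes and list members whose response differed between the genotypes at an adjusted p under 0.05 (x axis, relative to the median gene, n = 2 samples in each group). Genes listed at 0 in all samples of a group are left out. Genes are ordered by the difference, from Clec10a, whose change was more positive in WT, to Acot1, whose change was more negative in WT (-5.38).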

How the data were processed

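RNA-seq was done on 8 samples of mouse BMDMs, of which the 4 WT samples were analysed here and the 4 cKO samples served only to compare responses. Per the labels, reads were processed by the authors with HISAT2 2.2.1 and StringTie 2.1.7 on mm10. The deposited values are a signal, the mean coverage per base of a gene as the authors' StringTie run gave it, with no scaling for depth, so levels can be compared between genes per length. The deposited fold changes, p-values and FDR values are the authors' own comparisons and were not used. Exact read totals of the libraries were not used here, and the coverage holds no counts, so no counting interval was computed. Strand-specific counting is not stated, so reads of overlapping or antisense genes cannot be told apart.

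Genes with a mean deposited coverage of at least 0.5 over the 4 WT samples were kept, each sample was scaled to an equal median over them, and limma 3.58.1 (R 4.3.3) was run on log2(scaled coverage + 0.1) with Benjamini-Hochberg adjustment. A fold change on this scale understates the change of genes at low coverage. Calls needed an adjusted p under 0.05 and a fold change over 1.5. The response of WT and cKO was compared by the interaction term of a limma fit over all 8 samples, scaled together. The fitting code was tested on simulated data. The rule requiring a call on both scales was added after the data were seen. The members, gene lists and motifs were chosen with earlier results of these data known. Genes were named as the 12 largest rises and falls with a mean scaled coverage of at least 50 in the higher group, the 10 largest gains and losses, list members picked for their role, Nudt21, Cpsf6 and Cpsf7, and the 5 largest differences of response in each direction. The samples of a group are pools of separate mice as far as the methods state, and p-values measure only the spread between these samples. Promoter sequences are from RefSeq GRCm38.p6, matched by symbol.

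Alternatives were other scalings (none, equal summed coverage, quantile, median of ratios), pseudocounts of 1 and 0.01, no filter or a minimum of 5, a spread shared over all 8 samples, an intensity trend, an unmoderated variance, a replicate block, no adjustment of p and leaving out each sample. Some items are not reported here.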

Additional observations from a re-analysis of the deposited data

Results flagged for a closer look

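The response to IFNγ and LPS differed between WT and Nudt21-cKO in the genes below by the interaction term of limma over 8 samples (n = 2 in each group), given as the log2 change in WT minus that in cKO, with levels as scaled coverage on the scale of that fit. The 5 largest positive differences were of genes at low levels. Trav15d-3 (9.11) stood at 58.5 and 51.7 in cKO at 0 h and was listed at 0 in the other 6 samples. Gm43650 (8.07) was likewise listed at 0 except in cKO at 0 h, with 18.6 and 38.5. For 2810408I11Rik the difference was 7.36, and at 4 h the WT samples stood at 45.5 and 53.6 while those of cKO stood at 2.83 and 1.24. Lrrc14b (6.89) was at 137 and 93.1 in cKO at 0 h against 0.773 and 0.942 in WT. Gm46189 had a difference of 5.28.

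The 5 largest negative differences were also of genes at low levels, Ifit1bl1 apart. A830012C17Rik (-9.32) was listed at 0 in WT at 4 h and stood at 23.2 and 19.5 in cKO. Tmem151a (-7.59), Gsta3 (-6.90) and Rnf227 (-6.51) were also listed at 0 in WT at 4 h and detected in cKO. Ifit1bl1, an interferon-induced gene (-7.13), was listed at 0 in cKO at 0 h and at 4 h stood at 299 and 237 in WT against 589 and 621 in cKO. Differences for genes listed at 0 in a group depend on the pseudocount.

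Among genes described above, the difference was positive for Ccr1 (2.2), Olr1 (2.06), Ccl12 (1.90), Tlr4 (1.30), Selenop (1.13), Cd80 (1.08) and Gbp2b (1.01). It was negative for Acot1 (-5.38), Trib3 (-3.22), Cfb (-2.84), Csf2 (-2.79), Sesn2 (-1.89) and Slc40a1 (-1.42). Selenop, a selenium transport protein, fell from 29792 and 31924 to 15312 and 15059 in WT and from 26754 and 25454 to 5886 and 5820 in cKO. Cd80 started at 131 and 126 in WT and 239 and 235 in cKO and reached 2438 and 2372 against 2169 and 2042. With the replicate number as a block, A830012C17Rik and Trav15d-3 passed (adjusted p of limma 0.0463 for both) and none of the other genes given here did. Trav15d-3 was listed at 0 in all WT samples and in cKO at 4 h, and A830012C17Rik in WT at 4 h. Samples listed at 0 cannot differ from each other, so the spread fitted for these genes is understated. In the fit without the block, 3541 of the 16284 genes had an unadjusted p (limma) under 0.05.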

How the results depend on the processing

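The counts of calls depended on the scaling and on single samples. Relative to the median gene 4954 genes were higher and 3137 lower. The counts were 1814 and 8374 on the deposited coverage, 1847 and 8057 at equal summed coverage, and 3169 and 4012 after quantile normalization. Over 4-fold, 2090 were higher and 1540 lower, against 1047 and 4212 on the deposited coverage and 1068 and 4062 at equal summed coverage. Requiring both scalings left 1846 higher, 1067 of them over 4-fold. An unmoderated variance left 1880 lower and 1023 lower over 4-fold. The cause of these differences was not tested beyond the construction of each alternative.

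With one sample left out, 1247 to 3409 genes were higher, 1149 to 2659 lower, 1066 to 1946 over 4-fold higher and 1044 to 1746 over 4-fold lower. The lowest counts came without either 0 h sample, when 86 and 87 of the 226 genes named lost their call, and fewer samples estimate the spread. The lone sample of a time is assumed to vary like the other time. The genes whose response differed between WT and cKO numbered 370, and 208 to 627 with one sample left out, 589 with a pseudocount of 0.01, 586 with a minimum of 5 and 1145 with an intensity trend.

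The replicate numbers pair only 2 samples at each time, and the correlation of their deviations was 0.112. With the replicate number as a block 3321 genes were higher and 2115 lower, and 30 differed in response between WT and cKO, with 13 of the 226 genes named losing their call in WT. These were Igf1, Ppbp, Ctss, Tlr4, Tlr13, Spp1, Cd163, Ftl1, Selenop, Ctsl, Cpsf7, Nat8l and Trib3, with adjusted p of limma from 0.0527 to 0.0647. The sources do not state whether the same pool of cells served at both times.

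Directions reversed as follows, in log2 fold changes. On the deposited coverage these were Ctss (-0.38), Adgre1 (-0.79), Nudt21 (-0.27), Cpsf6 (-0.85), Cpsf7 (-0.34), S100a9 (-0.07), Flt3 (-0.86) and Asl (-1.25). At equal summed coverage they were Ctss (-0.33), Adgre1 (-0.74), Nudt21 (-0.22), Cpsf6 (-0.80), Cpsf7 (-0.29), S100a9 (-0.02), Flt3 (-0.82) and Asl (-1.20). After quantile normalization they were Ctss (-0.71), Adgre1 (-1.05), Cpsf6 (-0.19), S100a9 (-0.32) and Asl (-0.37). Medians of lists reversed on the deposited coverage for cytokine and interferon receptors (-0.08), BCL2 family (-0.12), macrophage identity genes and lineage factors (-1.06), scavenger and lectin receptors (-1.27), NADPH oxidase and antioxidant genes (-0.52), iron handling (-0.81), prostanoid and leukotriene enzymes (-1.04), matrix proteases and inhibitors (-0.61), TCA cycle and pyruvate entry (-0.71), oxidative phosphorylation subunits (-0.10), cholesterol synthesis and uptake (-0.28), DNA replication and mitosis (-0.47), G1 cyclins and CDK inhibitors (-0.58), cytosolic ribosomal proteins (-0.46), cleavage and polyadenylation factors (-0.67) and unfolded protein and integrated stress response (-0.44). At equal summed coverage they did so for cytokine and interferon receptors (-0.03), BCL2 family (-0.07), macrophage identity genes and lineage factors (-1.01), scavenger and lectin receptors (-1.22), NADPH oxidase and antioxidant genes (-0.47), iron handling (-0.76), prostanoid and leukotriene enzymes (-0.99), matrix proteases and inhibitors (-0.56), TCA cycle and pyruvate entry (-0.66), oxidative phosphorylation subunits (-0.05), cholesterol synthesis and uptake (-0.23), DNA replication and mitosis (-0.42), G1 cyclins and CDK inhibitors (-0.53), cytosolic ribosomal proteins (-0.41), cleavage and polyadenylation factors (-0.62) and unfolded protein and integrated stress response (-0.39). After quantile normalization they did so for macrophage identity genes and lineage factors (-1.05), scavenger and lectin receptors (-1.11), NADPH oxidase and antioxidant genes (-0.68), iron handling (-1.07), prostanoid and leukotriene enzymes (-0.14), matrix proteases and inhibitors (-0.25), TCA cycle and pyruvate entry (-0.37), oxidative phosphorylation subunits (-0.04), cytosolic ribosomal proteins (-0.67) and unfolded protein and integrated stress response (-0.04). With median-of-ratios scaling they did so for macrophage identity genes and lineage factors (-0.07), scavenger and lectin receptors (-0.29) and prostanoid and leukotriene enzymes (-0.06), and among genes for Asl (-0.27). With a minimum of 5 the median of scavenger and lectin receptors (-0.05) and the gene Asl (-0.03) reversed, and with no filter that of lysosomal hydrolases and membrane proteins (0.11).
With one sample left out, values that crossed 0 ran from -0.41 to 0.08 for Fos, from -0.47 to 0.17 for Fth1, from -0.21 to 1.14 for Flt3, from -0.05 to 0.46 for Asl, from -0.11 to 0.09 for the median of lysosomal hydrolases and membrane proteins.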
